A study of Homo sapiens with 2 samples.

Results

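Aminoacyl-tRNA synthetases are the enzymes that join each amino acid to its transfer RNA, and the 35 nuclear genes described here are those of the cytosolic enzymes (19 genes) and of the mitochondrial enzymes (16 genes, with symbols ending in 2). The members were taken from a list of gene names and were matched to array probes through the RefSeq accession of each probe, among 23752 genes and unnamed transcripts that could be compared. HepG2, an established human hepatocellular carcinoma line that keeps many functions of liver cells, was cultured for 24 h either with hawk tea extract (HTE) or with its solvent, dimethyl sulfoxide (DMSO, 1 per mille). The labels give an HTE dose of 200 µg per mL, whereas the HTE array itself carries the mark 300. The published text on these arrays names the same dose as the mark, not that of the labels. Both groups were the same line in the same medium and were read on 1 Cy3 Agilent SurePrint G3 human array each, on a shared slide and scan. With 1 array per group there was no replicate culture, no test between the conditions was made, and array and treatment cannot be told apart.

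Cytosolic synthetases charge the transfer RNAs that serve cytosolic ribosomes, and several of them are held together in the multisynthetase complex with the scaffold proteins AIMP1, AIMP2 and EEF1E1. Mitochondrial synthetases are also encoded in the nucleus, are imported after translation, and charge the transfer RNAs made from mitochondrial DNA. Most amino acids have separate genes for the cytosolic and the mitochondrial enzyme, while GARS1 and KARS1 each supply both compartments. When uncharged transfer RNA accumulates or the endoplasmic reticulum is stressed, kinases of the translation factor eIF2 alpha favour translation of the transcription factor ATF4, and many cytosolic synthetase genes are known targets of ATF4.

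On each array 58717 of 62976 spots were not controls, 60.6% of them were well above background with DMSO and 56.6% with HTE, and 0 were saturated. Signals below are the processed signals of the scanner software before any scaling, while every log2 ratio is HTE over DMSO after the 75th percentile of each array was subtracted, which added 0.17 to the ratio of the unscaled signals. All 35 members were well above background on both arrays and were covered by 39 probes. The brightest probe stood for each gene. The only error that could be measured was that between spots and probes of the same array pair: the SD of the log2 ratio had a median of 0.051 among replicate spots (688 probes) and of 0.16 among different probes of a gene (4137 genes). For 30 members there was 1 probe with 1 spot and therefore no error of their own. In bulk RNA, fewer cells of a type and less RNA per cell cannot be told apart. All 8 hepatocyte markers examined, among them ALB and APOA1, lay between -0.19 and 0.21. Of 4 markers of other cells, KRT5 was not well above background, the leukocyte gene PTPRC had a ratio of 0.14 and the collagen gene COL1A1 of -0.63. The endothelial gene PECAM1 fell from a signal of 804 to 203, a ratio of -1.82, and its part in the results on the synthetases was not tested.

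The mitochondrial synthetases were lower with HTE as a group, and the cytosolic ones lay close to the middle of all genes. The median log2 ratio of the 16 mitochondrial genes was -0.27, which is 1.21-fold lower, with quartiles of -0.47 and -0.062. The median of the 19 cytosolic genes was 0.046, or 1.03-fold, with quartiles of -0.14 and 0.25, and it turned to -0.13 without scaling, -0.035 with scaling to the array median and -1.16 with scaling to the E1A spike-in probes, which read control RNA added during labelling. Over all genes the median was 0 and the quartiles were -0.28 and 0.27. The difference between the medians of the 2 kinds was 0.32, or 1.25-fold, and a shift common to a whole array cancels in it. Of the cytosolic genes 11 were above 0 and 8 below, and of the mitochondrial genes 3 were above 0 and 13 below, against 45.7% of all genes above 0. Among the 10 members with the highest ratios 9 were cytosolic, and among the 10 with the lowest ratios 7 were mitochondrial. The kinds overlapped, since only 5 cytosolic genes were above the highest mitochondrial gene.

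On its brightest probe every member differed by less than 2-fold, while 5.25% of all genes were at least 2-fold higher and 3.03% at least 2-fold lower. At the 1.5-fold level 1 of 19 cytosolic and 0 of 16 mitochondrial genes were higher, against 12.4% of all genes. In the other direction 0 of 19 cytosolic and 4 of 16 mitochondrial genes were at least 1.5-fold lower, against 10.5% of all genes. The remaining 30 members were within 1.5-fold.

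**Figure D1:**
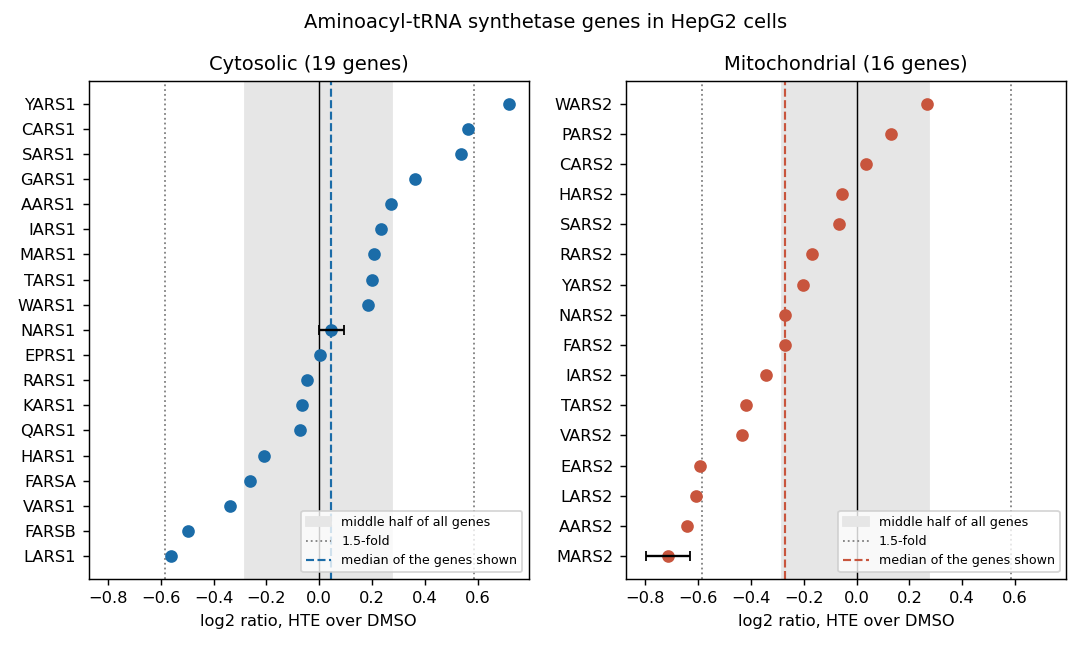
Log2 ratio of HTE over DMSO (horizontal axis) for the brightest probe of each synthetase gene, cytosolic on the left and mitochondrial on the right, with the median of each kind (dashed), the 1.5-fold limits (dotted), the range of the middle 50% of all genes (grey) and, for NARS1 and MARS2, the SD among replicate spots that passed the background flag on each array. The mitochondrial median of -0.27 lies at the lower edge of the grey range, and the cytosolic median of 0.046 near 0.

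The highest cytosolic gene was YARS1, the tyrosyl-tRNA synthetase. Its signal was 3647 with DMSO and 5323 with HTE, a log2 ratio of 0.72 (1.64-fold), and it was the only member at least 1.5-fold higher. Without scaling it was 0.55 and no longer at the 1.5-fold limit, and with the spike-in probes it was on the other side of 0, at -0.49. CARS1, which charges cysteine, went from 8286 to 10858 (0.56), just inside the 1.5-fold limit. SARS1, which charges serine and also the selenocysteine transfer RNA, went from 24156 to 31137 (0.54). These 3 genes stood above the rest of the cytosolic set, of which the next, the glycyl-tRNA synthetase GARS1, had a ratio of 0.36 with signals of 27048 and 30878. AARS1 for alanine (9533 and 10224, ratio 0.27), IARS1 for isoleucine (0.23), MARS1 for methionine (0.21), TARS1 for threonine (0.20) and WARS1 for tryptophan (0.18) followed within a narrow range. For these 5 genes the unscaled signals differed little between the arrays, so most of a ratio near 0.2 came from the scaling: TARS1 read 41912 with DMSO and 42718 with HTE, and WARS1 read 8886 and 8956.

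NARS1, the asparaginyl-tRNA synthetase, was the cytosolic gene measured most precisely, with 10 spots of its probe on each array. Its DMSO spots ran from 29955 to 32495 and its 9 usable HTE spots from 27237 to 29137, so that the unscaled spots did not overlap and HTE was the lower array. After scaling its ratio was 0.046 ± 0.047 (SD over the 9 spots usable on both arrays), and without scaling it was -0.13. The SD is the spread of single spots, not the error of their mean, and does not cover the scaling, which sets where 0 lies. The bifunctional glutamyl-prolyl enzyme EPRS1 (0.0043), RARS1 for arginine (-0.047), KARS1 for lysine (-0.066) and QARS1 for glutamine (-0.073) were also near 0. Below them came HARS1 for histidine (-0.21), the alpha subunit of the phenylalanyl enzyme FARSA (-0.26) and VARS1 for valine (-0.34), whose signals were 49653 and 34897. FARSB, the beta subunit of the same phenylalanyl enzyme, fell from 12120 to 7638 (-0.49). The lowest cytosolic gene was the leucyl-tRNA synthetase LARS1, which also acts as a leucine sensor for mTORC1. Its signal was 12993 with DMSO and 7825 with HTE, a ratio of -0.56 (1.47-fold lower).

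The 4 mitochondrial genes that were at least 1.5-fold lower served methionine, alanine, leucine and glutamate. AARS2 (alanine) went from 12329 to 7014, a ratio of -0.64. LARS2 (leucine) went from 14018 to 8166, a ratio of -0.61. EARS2 (glutamate) went from 4451 to 2624, a ratio of -0.59, which lies at the limit of 1.5-fold and was -0.55 with normexp background correction. MARS2, which charges methionine, had the lowest ratio of all members and a signal near background. Its 10 DMSO spots ran from 183 to 225 and its 10 HTE spots from 92.9 to 125, of which 9 were well above background. The spots of the 2 arrays did not overlap and the ratio was -0.71 ± 0.090 (SD over 10 spots, 0.083 over the 9 well above background on both arrays), but it was -0.39 with normexp correction. The median of the mitochondrial set without MARS2 was again -0.27.

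Of the other mitochondrial genes, VARS2 for valine (-0.44), TARS2 for threonine (-0.42) and IARS2 for isoleucine (-0.34) were the next lowest. IARS2 went from 23634 to 16571. FARS2 for phenylalanine (-0.27), NARS2 for asparagine (-0.27), YARS2 for tyrosine (-0.20) and RARS2 for arginine (-0.17) lay near the middle of the set. SARS2 for serine (-0.065), HARS2 for histidine (-0.055) and CARS2 for cysteine (0.037) were near 0. PARS2 for proline (0.13) and WARS2 for tryptophan were further above 0, and without scaling WARS2 was the 1 mitochondrial gene above 0. WARS2 had the highest mitochondrial ratio, 0.27, with signals of 6387 and 6816.

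**Figure D2:**
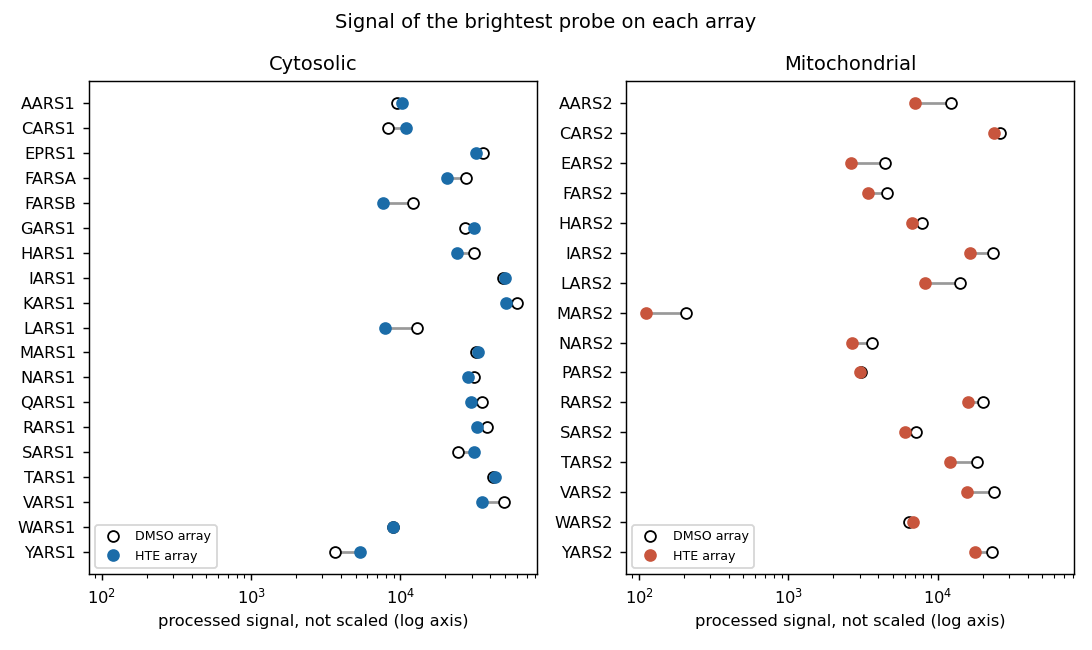
Processed signal of the brightest probe of each synthetase on the DMSO array (open circles) and the HTE array (filled circles), unscaled, on a log axis. The HTE circle lies left of the DMSO circle for every mitochondrial gene but WARS2, as for MARS2 at 206 and 112, and right of it for YARS1 at 3647 and 5323.

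Where a member had more than 1 probe, the probes had the same sign but not the same size. MARS1 had a ratio of 0.21 on its bright probe (32069 and 32889) and of 1.03 on a dimmer one (1070 and 1941). IARS1 had 0.23 and 0.17 on its brighter probes and 0.87 on a dim one (216 and 349). For SARS1 the second probe is assigned to a non-coding transcript of the gene, with signals of 2040 and 3095 and a ratio of 0.77. In each of these genes the dimmest probe gave the highest ratio, and with the mean over all probes the ratios became 0.62 for MARS1, 0.42 for IARS1 and 0.66 for SARS1. The count of cytosolic genes at least 1.5-fold higher was then 3.

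Each amino acid with separate enzymes was then compared between compartments, which gave 17 pairs because EPRS1 was set against both EARS2 and PARS2, and FARSA and FARSB were each set against FARS2. The cytosolic ratio was above the mitochondrial one in 13 pairs and below it in 4, with a median difference of 0.32 on the log2 scale. These counts are not independent of the medians above, and the pairs that share a gene are not independent of each other. The largest differences were for methionine (MARS1 at 0.21 and MARS2 at -0.71, 0.92 apart), tyrosine (YARS1 at 0.72 and YARS2 at -0.20, 0.92 apart) and alanine (AARS1 at 0.27 and AARS2 at -0.64, 0.91 apart). The place of methionine rested on the MARS2 probe near background: with normexp correction its difference was 0.54, below 7 other pairs, while alanine was at 0.98 and tyrosine at 0.86. The tyrosine pair came from a high cytosolic gene, since the YARS2 signal went from 23163 to 17860 and its ratio was within the middle 50% of all genes. The methionine and alanine pairs came mainly from a low mitochondrial gene. Threonine (0.62), serine (0.60) and glutamate (0.60) were also at least 1.5-fold apart, which made 6 such pairs, and isoleucine (0.58) and cysteine (0.52) followed. Asparagine differed by 0.32 and arginine by 0.12.

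For 4 pairs the difference was within 0.10, which is 2 median SDs of replicate spots of 1 probe. A pair compares 2 probes, so its error is larger than that of 1 ratio. The arginine, proline and histidine pairs were also within 0.16, the median SD among probes of a gene. In the leucine pair both genes were low, LARS1 at -0.56 and LARS2 at -0.61, and in the valine pair VARS1 at -0.34 and VARS2 at -0.44, a difference of 0.097 that was 0.30 with normexp. FARSA and FARS2 gave the smallest difference, 0.010, and the leucine pair gave the smallest one with normexp, 0.031. The signals were 27467 and 20350 for FARSA and 4608 and 3390 for FARS2. In the tryptophan pair both genes were above 0 and the cytosolic minus mitochondrial value was -0.083, which became 0.076 with normexp. The proline pair (EPRS1 and PARS2), the histidine pair and the pair of FARSB with FARS2 also had the higher ratio on the mitochondrial side, with cytosolic minus mitochondrial values of -0.13, -0.16 and -0.22. HARS1 and HARS2 are neighbours transcribed away from each other, and in the RefSeq table of GRCh38.p14 the start sites were 85 bases apart on chromosome 5 with 84 bases between them (chr5:140691371-140691454). Their ratios were -0.21 and -0.055.

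**Figure D3:**
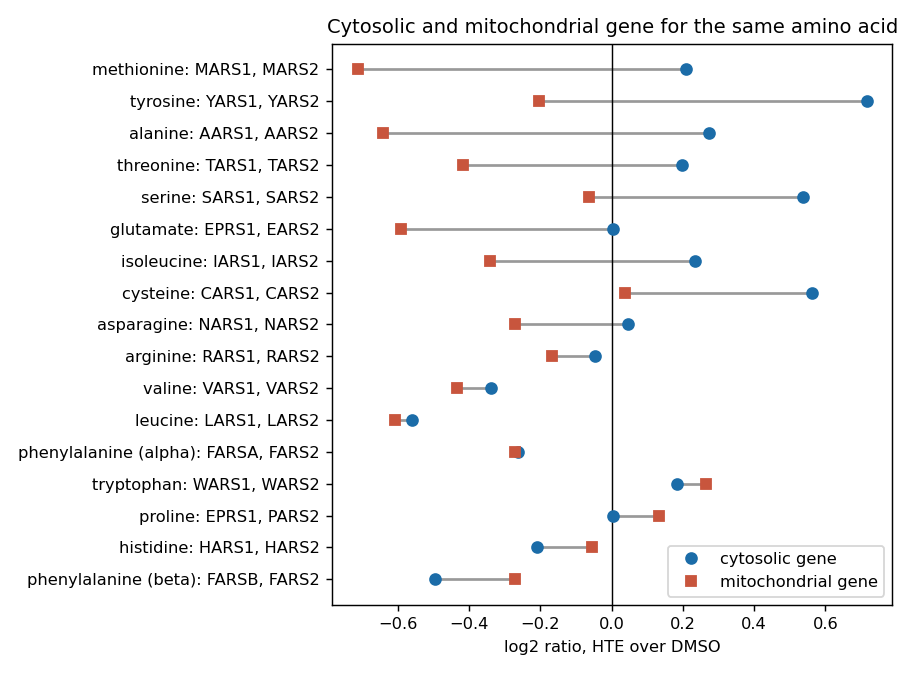
Log2 ratio of HTE over DMSO for the cytosolic gene (blue circle) and the mitochondrial gene (red square) of each amino acid, ordered by the difference between them. The cytosolic circle lies to the right in 13 of 17 pairs, and the widest gaps, 0.92, 0.92 and 0.91, are those of methionine, tyrosine and alanine.

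Within the cytosolic set, genes were next grouped by assembly, by enzyme class and by regulation. The 7 enzymes of the multisynthetase complex had a median of -0.047, with 3 above 0, and ranged from LARS1 at -0.56 to IARS1 at 0.23. Of the scaffold proteins, AIMP1 had a ratio of 0.11, AIMP2 of 0.090 and EEF1E1 of -0.20, and 0 of 3 were above 0 without scaling. The fold of the catalytic domain, which divides synthetases into class I and class II, did not separate high from low genes: the medians were 0.093 and 0.046 for the cytosolic genes and -0.34 and -0.27 for the mitochondrial ones. GARS1 and KARS1, which serve both compartments, had ratios of 0.36 and -0.066. Leaving both out could not move the cytosolic median of 0.046, because GARS1 lies above it and KARS1 below it.

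Of the cytosolic genes, 13 are commonly described as ATF4 targets. Their median ratio was 0.21 and 11 of 13 were above 0, the exceptions being LARS1 and VARS1. The 6 others, FARSA, FARSB, HARS1, KARS1, QARS1 and RARS1, had a median of -0.14 and 0 of 6 were above 0. Without scaling each ratio is 0.17 lower, which puts TARS1 (0.20) and WARS1 (0.18) close to 0 and NARS1 and EPRS1 below it, while the order of the genes is the same, and 9 of 13 were then above 0. Of the 13, 1 was at least 1.5-fold higher, beside 12.4% of all genes.

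The promoter windows of the RefSeq table (GRCh38.p14, 250 bases before to 50 bases after each annotated start) were searched on both strands for the ATF4/CEBP composite element, spelled TGATGNAA, at which ATF4 binds with a C/EBP partner. The table held 39 windows for 30 of the 35 members. No window was searched for YARS1, LARS1, VARS1, AARS2 or VARS2. The element was present in 7 of 16 cytosolic genes (43.8%), in 1 of 14 mitochondrial genes (7.14%) and in 1217 of 27305 genes of the table (4.46%). All 7 belonged to the commonly described ATF4 targets, of which 10 had a window (70%), and 0 of the 6 other cytosolic genes held it. The median GC content of the windows was 61.7% for cytosolic genes, 62.7% for mitochondrial genes and 58.7% for all genes. The 8 matches are given below because 7 of them are what the cytosolic genes with the element share in their promoters. The other match is in the mitochondrial gene YARS2. Each line reads 5′ to 3′ along the strand of the gene, with the element, or its reverse complement, in capitals and 11 bases on either side.
AARS1, chr16:70289675-70289704, minus strand: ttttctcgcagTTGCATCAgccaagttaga
CARS1, chr11:3057407-3057436, minus strand: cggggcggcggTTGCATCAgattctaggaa
GARS1, chr7:30594834-30594863, plus strand: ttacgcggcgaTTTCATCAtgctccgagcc
IARS1, chr9:92293692-92293721, minus strand: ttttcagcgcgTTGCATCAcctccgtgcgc
MARS1, chr12:57488053-57488082, plus strand: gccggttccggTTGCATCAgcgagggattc
NARS1, chr18:57621804-57621833, minus strand: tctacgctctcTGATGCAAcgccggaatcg
TARS1, chr5:33440956-33440985, plus strand: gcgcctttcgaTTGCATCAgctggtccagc
YARS2, chr12:32756076-32756105, minus strand: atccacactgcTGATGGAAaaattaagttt
The reverse complement was found in AARS1, CARS1, GARS1, IARS1, MARS1 and TARS1, and 5 of these 6 spell the same TTGCATCA, with GARS1 the exception. NARS1 carries that same element in the other orientation. Counted from the first transcribed base as 0, the element began at position -2 in CARS1, -4 in MARS1, -13 in IARS1, -33 in GARS1, 2 in TARS1 and 14 in NARS1, all close to the start, and at -187 in AARS1 and -197 in YARS2. A match is a description of the letters only.

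All 7 cytosolic genes with the element had a ratio above 0 (6 of 7 without scaling, which puts NARS1 below 0), from 0.046 (NARS1) to 0.56 (CARS1), with a median of 0.23. The 9 cytosolic genes with a window but no element had a median of -0.066 and ranged from -0.49 (FARSB) to 0.54 (SARS1), and 3 of 9 were above 0. SARS1 therefore had a ratio close to that of CARS1 without these letters in its window. The 3 above 0, EPRS1, SARS1 and WARS1, are commonly described ATF4 targets, and the 6 below 0 are not. The comparison by element is thus not independent of the one by described targets. YARS2, the mitochondrial gene with the element, had a ratio of -0.20, and the 13 mitochondrial genes without it had a median of -0.27, with 3 above 0. The element for NRF1, a regulator of nuclear genes for mitochondrial proteins, was found in 3 of 16 cytosolic genes (18.8%: FARSB, SARS1 and TARS1), in 3 of 14 mitochondrial genes (21.4%: IARS2, MARS2 and PARS2) and in 6.98% of all genes. The 3 mitochondrial genes had ratios of -0.34, -0.71 and 0.13 and so lay on both sides of 0.

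**Figure D4:**
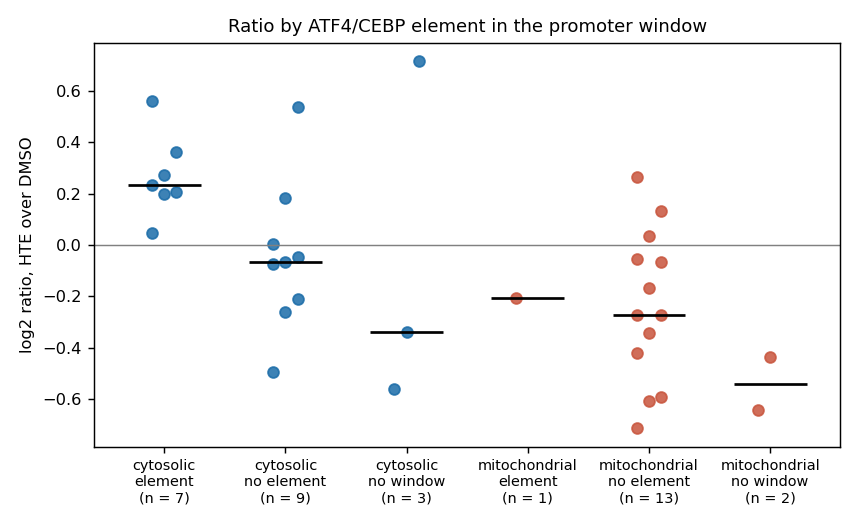
Log2 ratio of HTE over DMSO (vertical axis) of each synthetase gene, grouped by kind and by whether the ATF4/CEBP element was found in its promoter window, with a bar at each group's median. The 7 cytosolic genes with the element lie between 0.046 and 0.56, and the 9 without it between -0.49 and 0.54.

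Other genes of the amino acid response, in which ATF4 and its partners respond to a shortage of amino acids, differed more than the synthetases. Of 15 such genes 14 were above 0, 9 were at least 1.5-fold higher and 5 at least 2-fold higher, against 12.4% and 5.25% of all genes, and their median was 0.65. Without scaling 13 of 15 were above 0, against 31.8% of all genes, and ATF4 and CEBPB (0.65 as scaled) were no longer 1.5-fold higher. The highest was CHAC1, an enzyme that degrades glutathione, with signals of 633 and 2799 and a ratio of 2.32. ATF5 was the lowest at -0.27. ATF4 itself went from 65510 to 89473 (0.62) and ASNS, the asparagine synthetase, from 43100 to 46673 (0.29). FGF21, which is among the 9, was not well above background on the DMSO array, and its value is a bound: it was at least 1.87-fold higher with HTE. The element was found in 5 of the 14 genes with a window (35.7%). The transcripts of the eIF2 alpha kinases lay on both sides of 0, from EIF2AK2 at -0.53 to EIF2AK3 at 0.19. WARS1 is also known as an interferon-induced gene, and ISG15, another gene of that kind, had a ratio of 0.38.

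Genes that act on charged transfer RNA were examined in the same way. The 3 subunits of the mitochondrial amidotransferase that makes glutaminyl-tRNA (GATB, GATC and QRSL1) and the formyltransferase MTFMT, which prepares methionyl-tRNA for initiation, were 4 of 4 below 0, from QRSL1 at -0.34 to GATC at -0.092. The mitochondrial elongation factors were also 4 of 4 below 0, from GFM1 at -0.36 to TUFM at -0.049. Of all 23752 genes, 11631 were below 0. In these 2 sets only QRSL1, GFM1 and GFM2 (-0.20) were further from 0 than 0.16, the median SD among probes of a gene. The cytosolic elongation factors were above 0 in 4 of 5 cases, from EEF1B2 at -0.087 to EEF2 at 0.44, against 45.7% of all genes above 0. Without scaling EEF1A1 and EEF1D were also below 0, which left 2 of 5 above it, against 31.8% of all genes. SEPSECS and PSTK, which convert seryl-tRNA made by SARS1 into selenocysteinyl-tRNA, had ratios of 0.40 and 0.29. DTD2, which clears mischarged transfer RNA, had a ratio of -0.24. None of these genes was at least 1.5-fold changed on its brightest probe.

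The position of each kind against 0 depended on how the arrays were scaled, whereas the distance between the kinds hardly did. A shift of a whole array cancels in that distance, so no scaling, the array median and the spike-in probes could not change it. Nor could the filters on dim probes, since every member was well above background on both arrays. Across the 10 alternative settings the difference between the medians was 0.32 to 0.34. Those able to change it gave 0.34 (quantile normalization), 0.33 (normexp), 0.32 (outlier spots kept) and 0.32 (mean over probes). The mitochondrial median was below 0 in every setting, and the cytosolic median was below 0 without scaling, with the array median and with the E1A spike-in probes. Scaling to the spike-in probes moved the median of all genes by -1.20, no scaling by -0.16, and keeping dim probes by 0.20. Relative to the median of all genes, the cytosolic median was 0.035 without scaling and -0.16 with dim probes kept, and the mitochondrial median was -0.28 and -0.47.

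**Figure D5:**
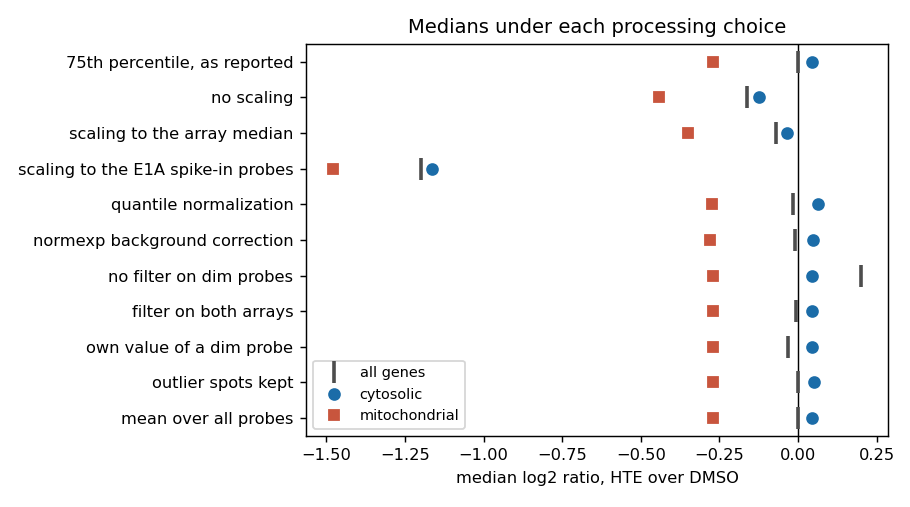
Median log2 ratio of HTE over DMSO for cytosolic genes (blue circles), mitochondrial genes (red squares) and all genes (grey bars) under each processing choice, with the values given above in the first row. The gap between circle and square is 0.32 to 0.34 in every row. A shift of a whole array cannot change the gap and moves all medians together, to -1.16 and -1.48 with the spike-in probes.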

How the data were processed

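HepG2 cells received DMSO or HTE for 24 h, and 1 array was read per group. The authors deposited the Agilent Feature Extraction output of each array (version 11.5.1.1 in the file headers, 10.7 in the submitters' processing notes). As deposited, the processed signals are intensity values with background already subtracted by that software and with no scaling between arrays. Control spots and outlier spots (440 with DMSO, 459 with HTE) were left out, the 75th percentile of log2 signal (4020 and 3570 as signals) was subtracted, and replicate spots were averaged. Probes entered if a share of 0.5 or more of the spots passed the software's background flag on either array. A probe dim on 1 array entered as a bound, which was set to 0 where it was under 1-fold (1272 of 2752 genes on a bound). Probes were named through RefSeq accessions in the gene table of GRCh38.p14 (28146 of 50532 probes). The array design names another build, so coordinates are given only for the RefSeq promoter windows.

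The members and the gene lists were chosen with earlier results of these data known. Genes named with full values were the members at least 1.5-fold changed, the highest and lowest member of each kind, the pairs with the largest and smallest differences, members with several probes and, from other lists, the largest rise and fall, and ATF4, ASNS, FGF21, ALB, APOA1 and some further members were named in addition, after their values were seen. For 2 lists an extreme gene is left out of the text. A planned look at protein sequences was not run. The alternatives were no scaling, scaling to the array median or the E1A spike-in probes, quantile normalization, normexp background correction (offset 50, on median signals in place of the planned mean signals), other filters on dim probes, outlier spots kept, the mean over probes and a 2-fold limit. The steps were tested on simulated data made by shifting 200 of 23309 genes of the DMSO array, and 200 were recovered at 2-fold with 0 others called. Each shift was larger than 2-fold and the added noise was small, so this checks only that the steps run correctly. Differences under 2-fold, such as those of the members, were not simulated. The software was limma 3.58.1 in R 4.3.3, and in Python 3.11.15 pandas 2.3.3, matplotlib 3.10.9 and numpy 2.4.6. The number of arrays limits the precision.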

Additional observations from a re-analysis of the deposited data

How the results depend on the processing

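The difference between the medians, 0.32, and the 13 of 17 pairs with the higher cytosolic ratio did not change by more than the SD of replicate spots or by 1.5 times under any of the 10 alternatives, among which normexp gave 14 pairs. Neither value could change with no scaling, the array median, the spike-in probes or the filters on dim probes. The medians themselves moved with the scaling. The cytosolic median was -0.13 without scaling, -0.035 with the array median and -1.16 with the E1A spike-in probes, and the mitochondrial median was -0.44, -0.35 and -1.48. The count of cytosolic genes at least 1.5-fold higher, 1, became 0 without scaling, 0 with the spike-in probes, 3 with the mean over all probes and 0 at a 2-fold limit. The count at least 1.5-fold lower, 0, became 2 without scaling (LARS1 and FARSB), 1 with the array median (LARS1) and 18 with the spike-in probes. The 4 mitochondrial genes at least 1.5-fold lower became 6 without scaling, 16 with the spike-in probes, 3 with quantile normalization, 2 with normexp (AARS2 and LARS2), and 0 at a 2-fold limit. YARS1 was -0.49 with the spike-in probes. All 35 members moved by more than the SD of replicate spots without scaling, with the array median and with the spike-in probes. With normexp 8 moved by more than that SD, with the mean over probes 3 and with quantile normalization 1, MARS2. In the settings that change only the scaling, the shift is the same for every member, since only the level subtracted from each array differs. The cause of the other shifts, and of the size of the shift with the spike-in probes, was not tested. Because there was 1 array per group, no array could be left out. No paired analysis was possible because each group holds 1 array and the values come from no test.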
